A study of Sus scrofa with 8 samples.

Results

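Macrophages and the monocytes they can arise from were followed here through 33 marker genes in the right ventricular free wall of pigs. They are a list of gene symbols, and the rule that names them uses no measured value. The list was nevertheless chosen with earlier results of these data known. Of these, 29 were matched by the gene names of the authors' deposited table, 3 more by its one-to-one human orthologue names, and C1QA by a reference table of gene names, so all 33 were found among the 31908 gene models counted. RNA of frozen tissue was sequenced in bulk from 4 Yorkshire cross pigs with pulmonary artery banding and 4 control pigs (1 library for each animal identifier in the labels). The banded group is described as castrated male piglets, 4.5 ± 0.6 weeks old and 6.4 ± 1.3 kg at surgery. A tape around the main pulmonary artery was tightened to a right ventricular peak systolic pressure of roughly 30 to 40 mmHg, which loads the right ventricle with pressure. The control pigs were of similar age and weight, were housed for 8 weeks and have the treatment label none. The sex of the controls, the interval from banding to tissue collection and a sham operation are not stated in the labels. The groups therefore differ in surgery as well as in load, and the effects of these cannot be told apart.

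The adult heart holds resident macrophages, which in mice are seeded before birth and renew themselves with little input from blood, and macrophages that derive from circulating monocytes carrying the chemokine receptor CCR2. Resident cells in mouse and human hearts carry scavenger and endocytic receptors such as CD163, MRC1, LYVE1, FOLR2 and TIMD4, clear dying cells and debris, and make the complement subunits C1QA, C1QB and C1QC. Monocyte-derived cells are known for CD14, ITGAM, CYBB and inflammatory cytokines, and a lipid-handling or scar-associated state is marked by TREM2, SPP1 and GPNMB. Several of these genes are not unique to macrophages: LYVE1 also marks lymphatic endothelium, STAB1 and MRC1 are found in some endothelial cells, PTPRC in all leukocytes, and TYROBP and FCER1G in natural killer cells. In bulk tissue, more cells of a type and more RNA per cell cannot be told apart.

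Most macrophage markers were somewhat more abundant in banded right ventricles, but few passed the test. Of the 33 members, 30 had enough counts to be tested, 25 of these 30 had a log2 fold change of banded over control above 0, and 2 passed an adjusted p of 0.05. The genes that passed were F13A1, the A subunit of coagulation factor XIII and a marker of tissue macrophages, and CD14, the lipopolysaccharide co-receptor of monocytes and macrophages. Both rose by about 1 unit of log2. CD163 had a log2 fold change of similar size but a larger standard error, and did not pass. CCR2, LYVE1, SPP1 and PTPRC had log2 fold changes below 0, and so did CX3CR1.

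Across the genome 3.47% of the 13697 tested genes were called higher in banded pigs, 3.50% lower and 6.97% in either direction, against 2 of 30 members, or 6.67%, so the share of members called was near the background. An unadjusted p under 0.05 with a higher value in banded pigs was found for 15 of the 30 members, against 12.1% of all tested genes. A log2 fold change above 0 was found for 83.3% of the tested members and for 51.6% of all tested genes. The median log2 fold change was 0.40 over the tested members and 0.02 over all tested genes. For 4 members (13.3%) every banded animal was above every control, against 7.66% of all tested genes. These shares describe the list and were not tested as a set, because the members were chosen with results of these data known. Leaving out any 1 of the 8 libraries gave 23 to 26 members above 0. The number of members called depended on the tool and on single animals. DESeq2 called 8 of 31 members higher and 0 lower, against 5.38% of all genes called higher, and limma-voom with quality weights called 8 of 30, against 4.99%. Without banded 4, edgeR called 7 of 30, against 3.57%. With scaling by library size alone it called 0, against 2.21%, and without control 1 or control 3 it called 0, against 1.44% and 1.50%.

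The libraries held 31033679 to 34183338 counts, of which 30.5% to 43.9% came from the mitochondrial genome, and a count of 0 allows at most 0.0878 to 0.0967 CPM (counts scaled to a common library size), by counting error only. The cardiomyocyte troponin gene TNNT2 was at 9319 to 10165 CPM in banded animals and 6599.8 to 9027 CPM in controls, the abundance of a heart muscle library. Libraries of 1 group correlated at a Spearman coefficient of 0.958 to 0.978 across genes, and none was a copy of another (chi-square over degrees of freedom of at least 23.4). By that measure banded 3 was furthest from the other banded libraries (134 to 144, against 41.9 to 69.9 among banded 1, 2 and 4). Control 4 was furthest from the other controls (102 to 119, against 23.4 to 27.3 among controls 1 to 3). Banded 3 also had the lowest mitochondrial share of all libraries (30.5%) and control 4 the highest (43.9%). The part of that share in these distances was not tested. Of all genes 475 were called higher and 479 lower, and the total of 954 fell to 399, 415 and 409 without control 1, 2 or 3.

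**Figure D1:**
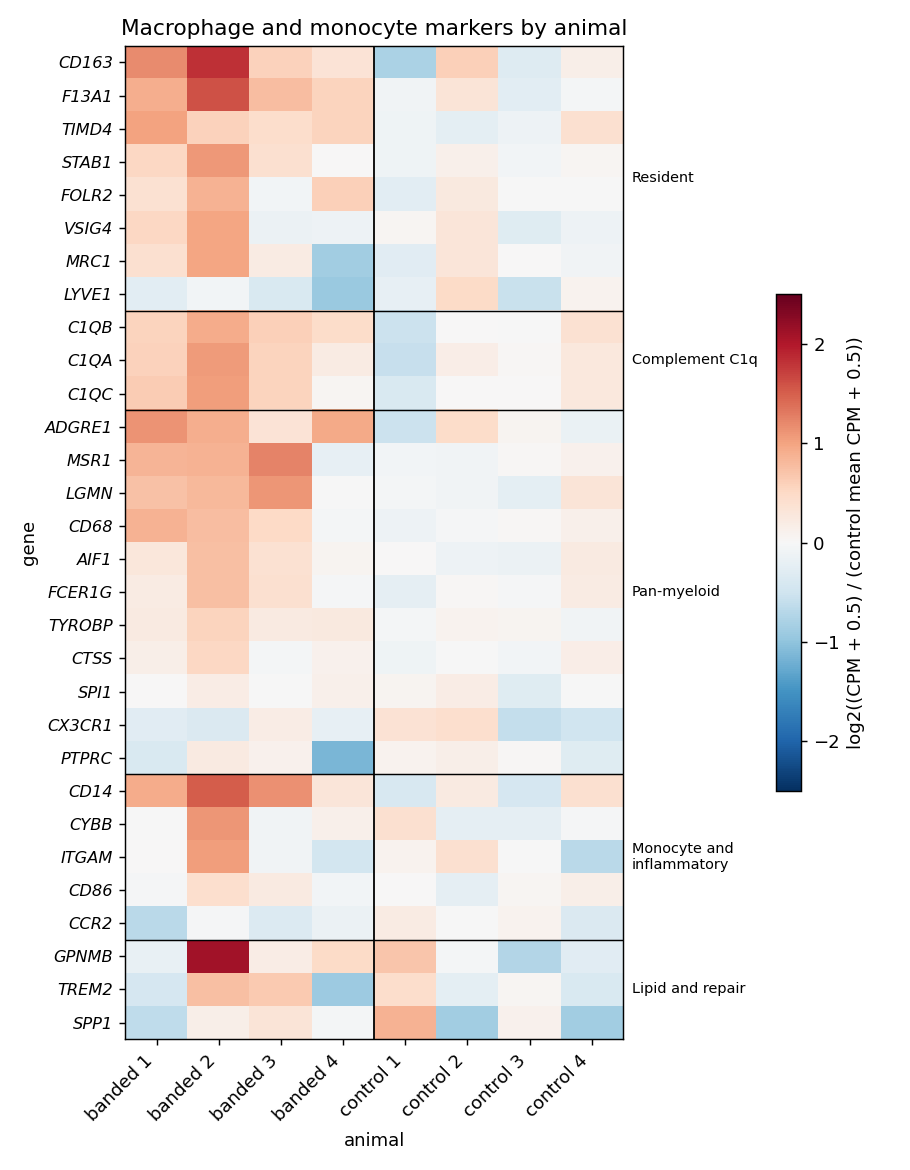
Log2 ratio of the CPM of each tested marker in each animal to the control mean (0.5 CPM added to both), with banded animals left of the line and controls right of it, and genes grouped by role. Banded 2 is the deepest red column, with the highest value of all 8 animals for 20 of 30 markers, and banded 4 is the palest of the banded columns.

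Among the members, 1 animal stood out within the banded group. Banded 2 had the highest CPM of all 8 animals for 20 of the 30 tested members, and was above the banded mean for 28. Banded 4 was above the banded mean for 4 of 30. Summed over all members, banded animals 1 to 4 held 1402, 1909, 1379.9 and 1070.3 CPM, against 831, 1069, 932 and 1112 CPM in controls 1 to 4, so banded 1 to 3 were above every control and banded 4 was below control 4. Banded 4 also had by far the most red cell RNA, with 148, 129, 174 and 1789.6 CPM summed over 6 genes in banded animals 1 to 4, against 86.6, 74.9, 322 and 259.6 CPM in controls 1 to 4. The part of blood in the low marker values of banded 4 was not tested.

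Among the 8 resident markers 1 was called higher (F13A1) and 0 lower, 5 had an unadjusted p under 0.05, and 7 had a log2 fold change above 0. The median log2 fold change of the 8 was 0.53. Over all tested genes 3.47% were called higher, 12.1% were higher with an unadjusted p under 0.05, and 51.6% were above 0. F13A1 (chromosome 7, 3751291 to 3900765, minus strand, Sscrofa11.1) was at 23.6, 38.3, 21.2 and 18.4 CPM in banded animals 1 to 4, against 11.6, 15.5, 10.2 and 11.9 CPM in controls 1 to 4. Every banded animal lay above every control, and banded 2 was the highest. Its log2 fold change was 1.05 ± 0.23 (SE), and the edgeR quasi-likelihood adjusted p was 0.0214. The call ended without control 1 (adjusted p = 0.0712), control 3 (0.0747) or control 4 (0.0523), and with scaling by library size alone (0.0605).

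CD163 (chromosome 5, 63300146 to 63334498, plus strand), the scavenger receptor for haemoglobin bound to haptoglobin, was at 118, 187, 78 and 66.6 CPM in banded animals 1 to 4, against 30.1, 79.4, 41.7 and 57.4 CPM in controls 1 to 4. Banded 1 and 2 exceeded every control, while banded 3 and 4 lay within the control range. The log2 fold change of 1.11 ± 0.39 had an edgeR adjusted p of 0.130, whereas DESeq2 (0.00972) and limma-voom with quality weights (0.0428) gave adjusted p values under 0.05. TIMD4, a phosphatidylserine receptor that marks self-renewing resident macrophages in mice, was near 2 CPM, with 3.51, 2.47, 2.19 and 2.43 CPM in banded animals and 1.35, 1.19, 1.32 and 2.11 CPM in controls. All 4 banded values were above all control values, with a log2 fold change of 0.83 ± 0.31 and an edgeR adjusted p of 0.128. Limma-voom gave 0.0390.

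STAB1, a clearance receptor of macrophages and sinusoidal endothelium, held 80.4, 118, 74.3 and 56.6 CPM in banded animals and 52.1, 60.9, 52.9 and 57.6 CPM in controls, and 3 of 4 banded animals were above every control (log2 fold change 0.56, edgeR adjusted p = 0.108). Its exons reach into the span of NT5DC2, a gene of the opposite strand, and counting used strand. FOLR2, a folate receptor of resident macrophages, held 15.3, 21.6, 11 and 17.7 CPM in banded animals and 9.53, 13.7, 11.5 and 11.6 CPM in controls (log2 fold change 0.50, edgeR adjusted p = 0.163). VSIG4, a complement receptor, held 21.6, 30.0, 13.3 and 13.6 CPM in banded animals and 15.5, 18.5, 11.9 and 13.5 CPM in controls (log2 fold change 0.40, edgeR adjusted p = 0.386). For these 3 genes banded 2 was the highest animal of all. MRC1, the mannose receptor, was at 30.8, 46.4, 26.6 and 12.5 CPM in banded animals and 18.8, 28.7, 23.4 and 21.7 CPM in controls, with both the highest and the lowest value in the banded group (log2 fold change 0.33, edgeR adjusted p = 0.593).

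LYVE1, a hyaluronan receptor, differed from the other resident markers in the sign of its fold change. It was at 34.1, 39, 31.4 and 21.2 CPM in banded animals 1 to 4, against 35.7, 57.2, 27.8 and 43.5 CPM in controls 1 to 4, and the groups overlapped. The log2 fold change was -0.38 ± 0.23 (edgeR adjusted p = 0.356), below 0 under every alternative run. Per kilobase of exon it was the most abundant resident marker, at 15.4 CPM per kilobase over the 8 animals, against 10.8 for CD163. LYVE1 is shared with lymphatic endothelium, whose markers were lower in banded pigs for 5 of 6 genes tested. The summed level of these 6 was 130.1 to 253 CPM in banded animals and 241 to 281 CPM in controls, with none of them at 0, and PROX1, the transcription factor that defines that lineage, fell (10.7 ± 2.90 CPM in banded pigs and 19.2 ± 4.39 CPM in controls, SD, n = 4 each, edgeR adjusted p = 0.0461). Banded 1 (14.5 CPM) lay above control 4 (12.9 CPM) for PROX1. It was the only one of these called by edgeR and DESeq2, while limma-voom also called CCL21 and MMRN1 lower. Of all tested genes, edgeR called 3.50% lower, DESeq2 called 791 of 15626 lower and limma-voom called 657 of 13697 lower. The call of PROX1 ended with library size alone (0.0539), without robust estimation (0.0509), without any 1 of controls 1 to 3 (0.111 to 0.134) and without banded 2, 3 or 4 (0.0764 to 0.0919). The part of lymphatic vessels in the LYVE1 values was not tested.

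Within an animal, the level of LYVE1 relative to CD163 separated the groups. The ratio of their CPM was 0.288, 0.208, 0.403 and 0.319 in banded animals 1 to 4, against 1.19, 0.721, 0.666 and 0.757 in controls 1 to 4. The ratio of MRC1 to CD163 was 0.261, 0.248, 0.341 and 0.187 in banded animals and 0.625, 0.362, 0.561 and 0.377 in controls, also without overlap. These pairs of genes were chosen after their levels had been seen, so no test is given. Both ratios have CD163 as their denominator. Groups overlapped for CD163 over CD68 (4.00 to 7.91 in banded animals and 2.43 to 5.93 in controls). In the same order, they overlapped for CD163 over CCR2 (11.7 to 31.5 and 4.10 to 12.6) and CD14 over CCR2 (1.73 to 4.07 and 0.792 to 2.17).

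**Figure D2:**
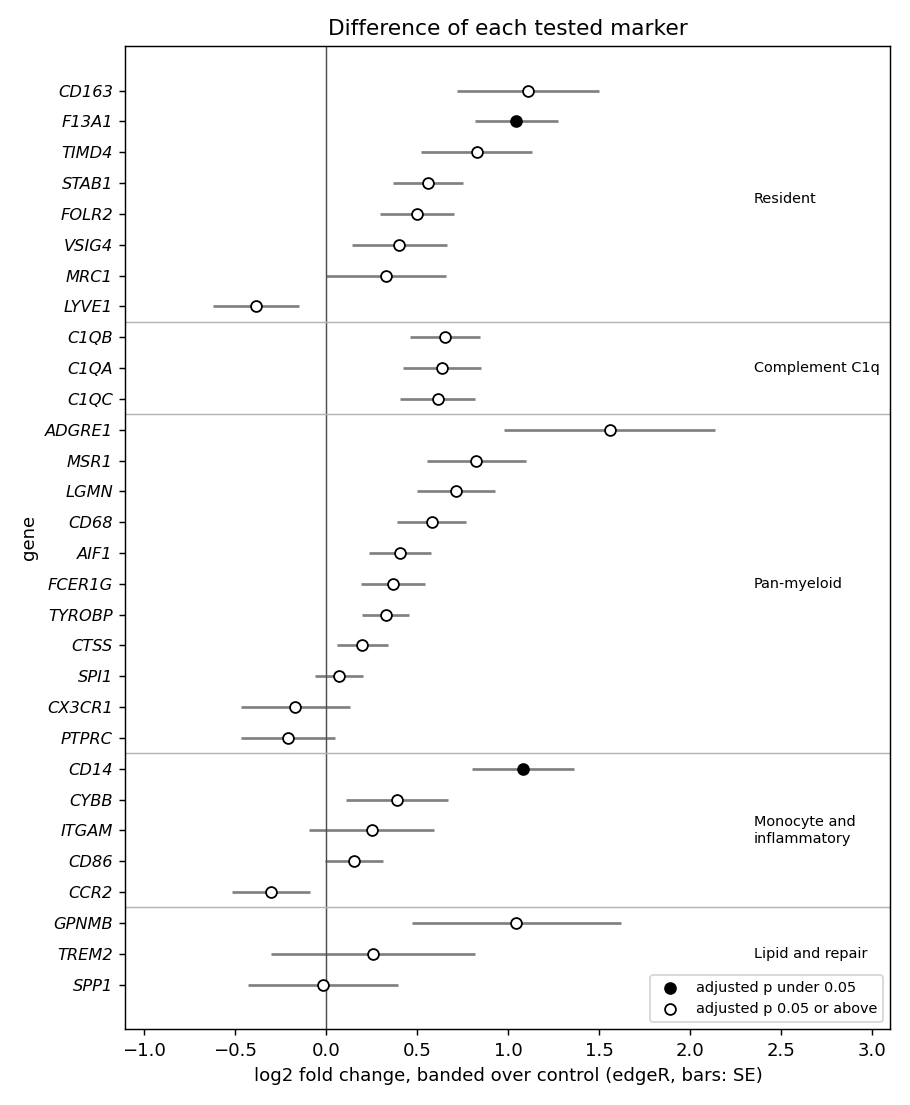
Log2 fold change of banded over control with its standard error for the 30 tested markers, by role, with filled points for an adjusted p under 0.05. F13A1 and CD14 are filled, 25 of 30 points lie right of 0, and LYVE1 and CCR2 lie left of 0.

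The 3 subunits of C1q, the recognition molecule of the classical complement pathway, are made in many tissues by macrophages. They were the most abundant members per kilobase, at 124 CPM per kilobase for C1QC, 81 for C1QA and 78.8 for C1QB over the 8 animals. Their genes lie side by side on chromosome 6 of Sscrofa11.1, with C1QA at 80586280 to 80589939, C1QC at 80592478 to 80597459 and C1QB at 80601665 to 80607471. C1QA was at 207, 294, 206 and 162 CPM in banded animals 1 to 4, against 93.2, 157, 142 and 167 CPM in controls 1 to 4. C1QB was at 250.4, 322, 257 and 234 CPM in banded animals and 116, 171, 169 and 221 CPM in controls, and was the only subunit whose groups did not overlap. C1QC was at 214, 284, 202 and 143 CPM in banded animals and 106, 139.5, 139 and 166 CPM in controls. In all 3 subunits banded 2 was the highest and control 1 the lowest animal.

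The subunits differed between the groups by nearly the same amount, with log2 fold changes of 0.64 ± 0.22 for C1QA, 0.65 ± 0.19 for C1QB and 0.62 ± 0.21 for C1QC. None passed the edgeR test (adjusted p = 0.101, 0.0639 and 0.0983), and all 3 had an unadjusted p under 0.05. DESeq2 called C1QA (0.0436), C1QB (0.0171) and C1QC (0.0432), and limma-voom called C1QB (0.0315) and C1QC (0.0428). The ratio of C1QA to C1QB within an animal was 0.827, 0.912, 0.801 and 0.691 in banded animals and 0.806, 0.919, 0.839 and 0.755 in controls.

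**Figure D3:**
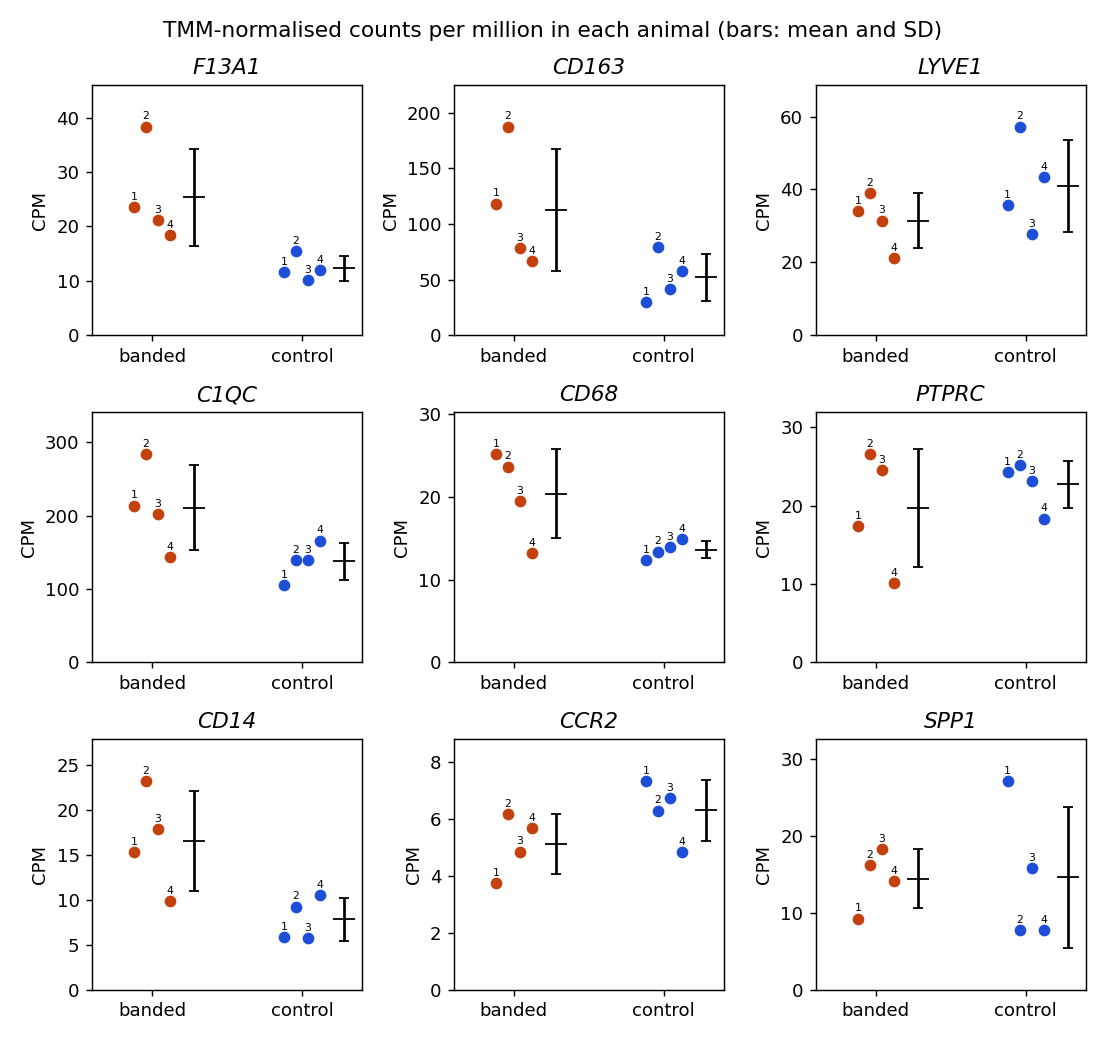
TMM-normalised CPM of 9 markers in each animal, banded left and control right, with the animal number above each point and the mean and SD beside the points. F13A1 is the only one of the 9 whose groups do not overlap, and the banded means of LYVE1, PTPRC, CCR2 and SPP1 are not above the control means.

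Of the pan-myeloid markers 11 of 12 were tested and 0 were called in edgeR. An unadjusted p under 0.05 was found for 6, each with a higher value in banded pigs, against 12.1% of all tested genes. DESeq2 and limma-voom called 2 each, LGMN in both, against 5.38% and 4.99% of all genes called higher. The median log2 fold change of the 11 was 0.37. CD68, a lysosomal glycoprotein and the usual tissue stain for macrophages, was at 25.2, 23.7, 19.5 and 13.2 CPM in banded animals 1 to 4, against 12.4, 13.4, 13.9 and 14.9 CPM in controls 1 to 4. Banded 1 to 3 were above every control and banded 4 was inside the control range (log2 fold change 0.58 ± 0.19, edgeR adjusted p = 0.0924). Without banded 4 it was called (0.0150), as it was by limma-voom (0.0356).

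A lysosomal protease and a scavenger receptor had higher values in the same banded animals. LGMN, the asparaginyl endopeptidase of lysosomes, held 125, 132, 163 and 75 CPM in banded animals and 73.3, 70.7, 63.5 and 94 CPM in controls (log2 fold change 0.71 ± 0.22, edgeR adjusted p = 0.0714). MSR1, the class A scavenger receptor for modified lipoproteins, held 10.1, 10.3, 13.4 and 4.62 CPM in banded animals and 5.16, 5.05, 5.56 and 5.88 CPM in controls (log2 fold change 0.83 ± 0.27, edgeR adjusted p = 0.0932). Both were above every control in banded 1 to 3, with their highest value in banded 3, and banded 4 was below every control for MSR1. Without banded 4 both were called (adjusted p = 0.0114 and 0.00817).

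TYROBP, the signalling adaptor of TREM2 and other myeloid receptors, was the most abundant pan-myeloid member per kilobase (34.8 CPM per kilobase). It was at 21.4, 27, 21.5 and 21.8 CPM in banded animals 1 to 4, against 17.6, 19.4, 19.1 and 17 CPM in controls 1 to 4, and all 4 banded animals were above all controls (log2 fold change 0.33 ± 0.13, edgeR adjusted p = 0.149). Its partner adaptor FCER1G was at 21.2, 31.1, 24.1 and 18 CPM in banded animals and 15.5, 18.8, 17.8 and 21 CPM in controls (log2 fold change 0.37, edgeR adjusted p = 0.227). AIF1, which encodes the actin-binding protein IBA1, was at 16.4, 22.8, 17.7 and 14.2 CPM in banded animals and 13.5, 12.2, 12.1 and 15.8 CPM in controls (log2 fold change 0.41, edgeR adjusted p = 0.171). ADGRE1, known in mice as F4/80, was scarce, at 1.36, 1.11, 0.587 and 1.15 CPM in banded animals and 0.0880, 0.667, 0.393 and 0.264 CPM in controls. It cleared the filter in all 4 banded animals but in 2 controls, so it entered the test through the group in which it was higher. The log2 fold change of 1.56 ± 0.58 (edgeR adjusted p = 0.133) is imprecise, and no direction is concluded from it. ADGRE1 is nevertheless counted among the 25 members above 0 and the 15 with an unadjusted p under 0.05. It is also among the 6 pan-myeloid markers with such a p.

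The other pan-myeloid genes had log2 fold changes closer to 0. PTPRC, the leukocyte antigen CD45, was at 17.4, 26.6, 24.6 and 10.1 CPM in banded animals 1 to 4, against 24.3, 25.1, 23.1 and 18.4 CPM in controls 1 to 4, and banded 4 was the lowest animal (log2 fold change -0.21 ± 0.26, edgeR adjusted p = 0.679, and 0.011 as the log2 fold change without banded 4). SPI1, the myeloid transcription factor PU.1, was at 34.9, 39.3, 34.2 and 37.7 CPM in banded animals and 36.5, 39.7, 28 and 34.5 CPM in controls (log2 fold change 0.07, edgeR adjusted p = 0.781). CTSS, an endosomal protease of antigen presentation, was at 50.8, 65.6, 44.5 and 49.7 CPM in banded animals and 42.6, 45.5, 43.7 and 51.5 CPM in controls (log2 fold change 0.20, edgeR adjusted p = 0.418). The CTSS model also covers part of the neighbouring CTSK, so its counts are uncertain. CX3CR1, the fractalkine receptor of patrolling monocytes and some resident macrophages, was at 3.60, 3.41, 5.22 and 3.86 CPM in banded animals and 5.93, 6.24, 2.84 and 3.07 CPM in controls (log2 fold change -0.17, edgeR adjusted p = 0.783). Controls 1 and 2 held the highest CX3CR1 values of all animals and control 3 the lowest.

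Among the 7 monocyte and inflammatory markers 5 were tested and 1 was called higher, CD14, with 0 called lower and a median log2 fold change of 0.25. Over all tested genes 3.47% were called higher. CD14 (chromosome 2, 142346358 to 142349581, minus strand) was at 15.3, 23.2, 17.9 and 9.80 CPM in banded animals 1 to 4, against 5.81, 9.22, 5.73 and 10.5 CPM in controls 1 to 4. Banded 1 to 3 were above every control, and banded 4 lay below control 4. The log2 fold change was 1.08 ± 0.28 with an edgeR adjusted p of 0.0430. This call ended without banded 1 (0.0646), banded 2 (0.0944), banded 3 (0.0781), control 1 (0.126), control 2 (0.0847) or control 3 (0.125), and with library size alone (0.0624).

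CCR2, the receptor that draws classical monocytes from blood into tissue, was at 3.76, 6.17, 4.85 and 5.67 CPM in banded animals 1 to 4, against 7.33, 6.29, 6.74 and 4.82 CPM in controls 1 to 4, so the animals with the most were controls 1 and 3 (log2 fold change -0.30 ± 0.22, edgeR adjusted p = 0.434). Its gene model also spans the neighbouring CCR3, whose RefSeq span holds 30.5% of the exon bases, so reads of the receptors cannot be separated. CYBB, the catalytic subunit of the phagocyte NADPH oxidase, was at 10.9, 24.3, 10.4 and 12 CPM in banded animals and 14.6, 9.34, 9.33 and 10.7 CPM in controls, with banded 2 well above the rest (log2 fold change 0.39, edgeR adjusted p = 0.431). CD86, a co-stimulatory ligand for T cells, was at 13, 18.1, 15.7 and 12.7 CPM in banded animals and 13.5, 11.3, 13.8 and 14.9 CPM in controls (log2 fold change 0.16, edgeR adjusted p = 0.598). ITGAM, the integrin CD11b, was at 16.9, 35.3, 15.6 and 12.1 CPM in banded animals and 17.9, 22.2, 16.6 and 10.4 CPM in controls. Its log2 fold change of 0.25 (edgeR adjusted p = 0.706) was -0.17 without banded 2, and its model also covers the spans of ITGAX and ITGAD, which hold most of its exon bases.

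Of the remaining inflammatory markers MARCO, a scavenger receptor of marginal zone and alveolar macrophages in mice, did not pass the filter. It had 83 counts in banded 1, and 5, 2 and 20 counts in banded 2 to 4, against 9, 3, 8 and 0 counts in controls 1 to 4. LYZ, the gene of lysozyme, had 0 counts in all 8 libraries. All of its exon bases are also exons of the CPSF6 model on the same strand, so reads there could not be assigned to LYZ alone and its level was not measured. MPEG1, a pore-forming gene of macrophages, was matched through a human orthologue name to a model with 0 counts in all libraries. That model lies outside the RefSeq span of MPEG1, so its level was not measured either.

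The lipid and repair markers had 0 of 3 called in edgeR, DESeq2 and limma-voom, and 0 with an unadjusted p under 0.05 in edgeR. Over all tested genes edgeR called 6.97%, so 0 of 3 cannot show an absence of change. SPP1, the secreted phosphoprotein osteopontin, was at 9.25, 16.2, 18.3 and 14.1 CPM in banded animals 1 to 4, against 27.2, 7.77, 15.8 and 7.73 CPM in controls 1 to 4. Control 1 was the highest animal of all, and the groups overlapped fully (log2 fold change -0.02 ± 0.41, edgeR adjusted p = 0.986). TREM2, a lipid-sensing receptor, was scarce, at 0.695, 2.19, 2.01 and 0.348 CPM in banded animals and 1.67, 0.841, 1.15 and 0.727 CPM in controls (log2 fold change 0.26 ± 0.56, edgeR adjusted p = 0.828). GPNMB, a lysosomal transmembrane glycoprotein, was at 3.06, 16.9, 4.08 and 5.11 CPM in banded animals and 6.01, 3.39, 1.91 and 2.81 CPM in controls. Its log2 fold change of 1.05 ± 0.57 (edgeR adjusted p = 0.313) rested on banded 2 and was 0.21 without it.

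Resident and inflammatory markers were also compared as means of log2 CPM per animal, over the 8 resident and the 5 tested inflammatory genes, with a prior count of 2. The resident mean was 4.61 ± 0.43 in banded pigs and 4.11 ± 0.24 in controls (SD, n = 4 each). The inflammatory mean was 3.64 ± 0.40 in banded pigs and 3.36 ± 0.09 in controls. The difference of the means, resident minus inflammatory, was 1.33, 0.93, 0.82 and 0.84 in banded animals 1 to 4, against 0.46, 0.98, 0.65 and 0.92 in controls 1 to 4. It was higher in banded pigs by 0.23 on the log2 scale, which is within 1 SD of either group (0.24 in both). The groups overlapped, and banded 2 was the highest animal on both means. No test was made of these means, since the genes were chosen with results known. With LYVE1, MRC1 and STAB1 left out of the resident genes the difference was 0.46, and without a filter on low counts, which brings in MARCO, it was 0.03. It was 0.11 without banded 1 and 0.13 without control 1.

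**Figure D4:**
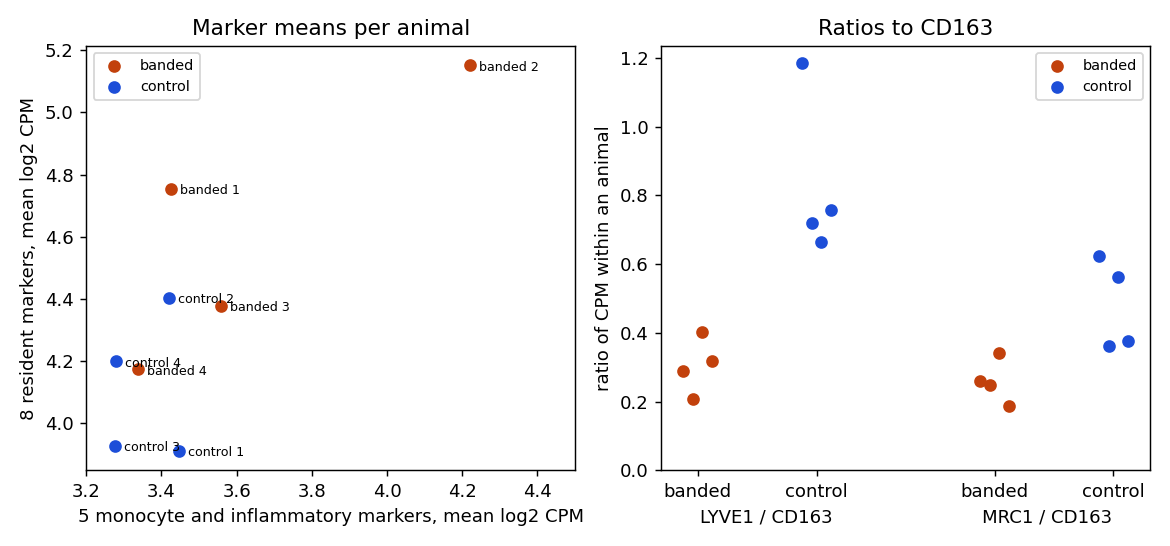
Left, mean log2 CPM of 8 resident markers against that of 5 monocyte and inflammatory markers for each animal, where banded 2 lies apart at the upper right. Right, ratio of LYVE1 to CD163 and of MRC1 to CD163 CPM within each animal, where all banded animals lie below all controls.

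Other macrophage genes, taken from a list of 34 symbols of which 31 were tested, gave 1 called higher and 0 lower, with a median log2 fold change of 0.26 and 25 of 31 above 0. Over all tested genes 3.47% were called higher and 51.6% were above 0. SLC11A1, an iron and manganese transporter of the phagosome, was the called gene, at 1.77, 2.90, 3.03 and 1.01 CPM in banded animals and 0.381, 0.957, 0.815 and 0.363 CPM in controls (log2 fold change 1.78 ± 0.48, edgeR adjusted p = 0.0476). Its call ended without any 1 library except banded 4 (0.063 to 0.130), and with library size alone (0.0832). DESeq2 and limma-voom each called 3 of the 31, adding HMOX1, a haem-degrading enzyme, and MS4A7, a membrane protein of macrophages. Of all genes, they called 5.38% and 4.99% higher. CSF1R, the growth factor receptor on which macrophages depend, was at 87.5, 147, 66.1 and 52.1 CPM in banded animals 1 to 4, against 61.6, 89.2, 66.3 and 47.9 CPM in controls 1 to 4 (log2 fold change 0.41, edgeR adjusted p = 0.467). As with the members, banded 2 was the highest animal and banded 4 the lowest banded one.

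Signals that maintain or recruit macrophages differed for 1 of 11 tested genes, against 6.97% of all tested genes. IL34, a ligand of CSF1R, rose: it was at 58.2, 60.8, 33.1 and 35.2 CPM in banded animals 1 to 4, against 17.5, 16.5, 17 and 15.2 CPM in controls 1 to 4, with no overlap, a log2 fold change of 1.50 ± 0.20 and an edgeR adjusted p of 0.00188. It was called under every alternative run. CSF1, the other ligand, was at 49.2 ± 24.7 CPM in banded pigs and 37.7 ± 3.15 CPM in controls (SD, n = 4 each, edgeR adjusted p = 0.447). CCL2, the main ligand of CCR2, was at 4.33, 11.7, 119.5 and 10.4 CPM in banded animals and 13.5, 13.1, 18.3 and 6.87 CPM in controls, so that 1 banded animal held far more than any other (edgeR adjusted p = 0.456). The log2 fold change was 1.49 with banded 3 and -0.56 without it for CCL2, and 0.38 and -0.022 for CSF1.

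Among cytokine and activation genes 2 of 11 were called higher and 1 lower by edgeR and limma-voom, and DESeq2 called 3 higher and 1 lower of 14. Of all genes, edgeR called 3.47% higher and 3.50% lower, and limma-voom and DESeq2 called 4.99% and 5.38% higher. Lower calls numbered 657 of 13697 genes with limma-voom and 791 of 15626 with DESeq2. IL4R, the receptor chain for interleukins 4 and 13, rose (31 ± 5.41 CPM in banded pigs and 18 ± 0.776 CPM in controls, log2 fold change 0.79, edgeR adjusted p = 0.00876) and was called under every alternative run. NLRP3, an inflammasome sensor, rose (6.63 ± 1.33 CPM in banded pigs and 3.43 ± 0.257 CPM in controls, log2 fold change 0.95, edgeR adjusted p = 0.0207), but not without control 1, 2 or 3 (0.0569 to 0.0608) or banded 2 (0.0542), nor with library size alone (0.0723). NOS2, the inducible nitric oxide synthase, fell (5.97 ± 1.40 CPM in banded pigs and 9.84 ± 0.415 CPM in controls, log2 fold change -0.72, edgeR adjusted p = 0.0492), and its call ended without any 1 library except banded 2 (0.0556 to 0.130). It also ended with median-of-ratios scaling (0.0502), with library size alone (0.067) and without a filter (0.0511). PTGS2, the inducible cyclooxygenase, was the further gene called by DESeq2, at 2.12, 4.83, 6.83 and 2.36 CPM in banded animals and 1.35, 2.61, 1.18 and 1.42 CPM in controls (log2 fold change 1.30, edgeR adjusted p = 0.0871). TNF, an inflammatory cytokine of activated macrophages, was scarce, at 0.695, 0.626, 0.742 and 0.313 CPM in banded animals and 1.26, 1.65, 1.10 and 1.06 CPM in controls, with no overlap and lower values in banded animals (log2 fold change -1.09, edgeR adjusted p = 0.141). TNF, PTGS2, FCN1, XCR1, TEK, LUM, CCL21 and MMRN1 were named after their values had been seen.

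Markers of the other blood and tissue cells were read beside the macrophage genes. Over all tested genes edgeR called 6.97% in either direction, and 3262 of 13697 had an unadjusted p under 0.05. At that share of calls, 0 calls in a short list cannot show that the cells it marks were unchanged. Of the lymphocyte markers 0 of 13 tested were called by edgeR, 0 had an unadjusted p under 0.05, and DESeq2 and limma-voom called 0. Their summed level was 18.6 to 38.3 CPM in banded animals and 30.1 to 35.4 CPM in controls, with CD3G at 0. Neutrophil markers had 0 of 6 called by edgeR and by limma-voom, 0 of 8 called by DESeq2, and 1 with an unadjusted p under 0.05 in edgeR. That gene was FCN1, a ficolin that classical monocytes express too, at 1.77, 2.25, 2.75 and 2.02 CPM in banded animals and 0.587, 0.899, 1.71 and 0.991 CPM in controls. All banded animals were above all controls (log2 fold change 1.06, edgeR adjusted p = 0.114). The summed level of neutrophil markers was 4.73 to 6.85 CPM in banded animals and 3.96 to 5.51 CPM in controls, with MPO and ELANE at 0.

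For the lists that follow, the background for edgeR is the 3.50% of all tested genes that it called lower. DESeq2 called 791 of 15626 genes lower and 840 higher, and limma-voom called 657 of 13697 lower. Dendritic cell markers had 1 of 6 called lower by edgeR and DESeq2 and 5 of 6 with a log2 fold change below 0. The called gene was ZBTB46, which endothelial cells also express (4.59 ± 0.998 CPM in banded pigs and 9.49 ± 3.32 CPM in controls, edgeR adjusted p = 0.0471). Limma-voom also called XCR1, a chemokine receptor of cross-presenting dendritic cells, lower. It was at 0.316, 0.910, 2.01 and 0.243 CPM in banded animals and 1.97, 2.55, 2.95 and 2.01 CPM in controls, with 1 banded animal, banded 3, within the control range (log2 fold change -1.44, edgeR adjusted p = 0.154). In the authors' deposited table, which runs control over banded, XCR1 is at 2.26 (adjusted p = 0.000157). The log2 fold changes of that table match those of DESeq2 without banded 3, so the 2.26 leaves out the animal within the control range. The summed level of dendritic markers was 7.54 to 11.9 CPM in banded animals and 12.7 to 22.4 CPM in controls. The ZBTB46 call ended without any 1 library except control 4 (0.0619 to 0.150), with library size alone (0.0586) and without robust estimation (0.0512). Of the mast cell markers 1 of 4 was called lower, GATA2, a transcription factor shared with endothelium (12.1 ± 1.67 CPM in banded pigs and 24.8 ± 6.51 CPM in controls, edgeR adjusted p = 0.0103, called under every alternative run). The other 3 mast cell markers had log2 fold changes above 0, at 0.05 to 0.18, and were not called. EMCN, of blood vessel endothelium, was the 1 of 8 endothelial markers called lower by edgeR (41.7 ± 5.53 CPM in banded pigs and 62 ± 2.96 CPM in controls, adjusted p = 0.0207), a call lost without controls 1, 2 or 3 or banded 1 (0.0507 to 0.0747). Of the 8, 6 had a log2 fold change below 0. TEK, the angiopoietin receptor, was at 42.4, 41.7, 39.6 and 40.6 CPM in banded animals and 48.1, 55, 71.9 and 54.5 CPM in controls, with no overlap, and was called lower by DESeq2 but not by edgeR (log2 fold change -0.48, adjusted p = 0.0560). PDGFRA was the 1 of 7 fibroblast markers that fell (42.2 ± 5.38 CPM in banded pigs and 59.4 ± 6.54 CPM in controls, edgeR adjusted p = 0.0480), a call lost in 9 of the 16 alternatives. Fibroblast markers went both ways, with 3 log2 fold changes above 0 and 4 below. LUM was at 426 ± 66.3 CPM in banded pigs and 284 ± 62.9 CPM in controls (log2 fold change 0.58, edgeR adjusted p = 0.0839). DESeq2 called LUM higher. Endothelial markers summed to 899 to 934 CPM in banded animals and 875 to 1032 CPM in controls, and fibroblast markers to 3262 to 5739 CPM in banded animals and 3649 to 4870.4 CPM in controls.

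**Figure D5:**
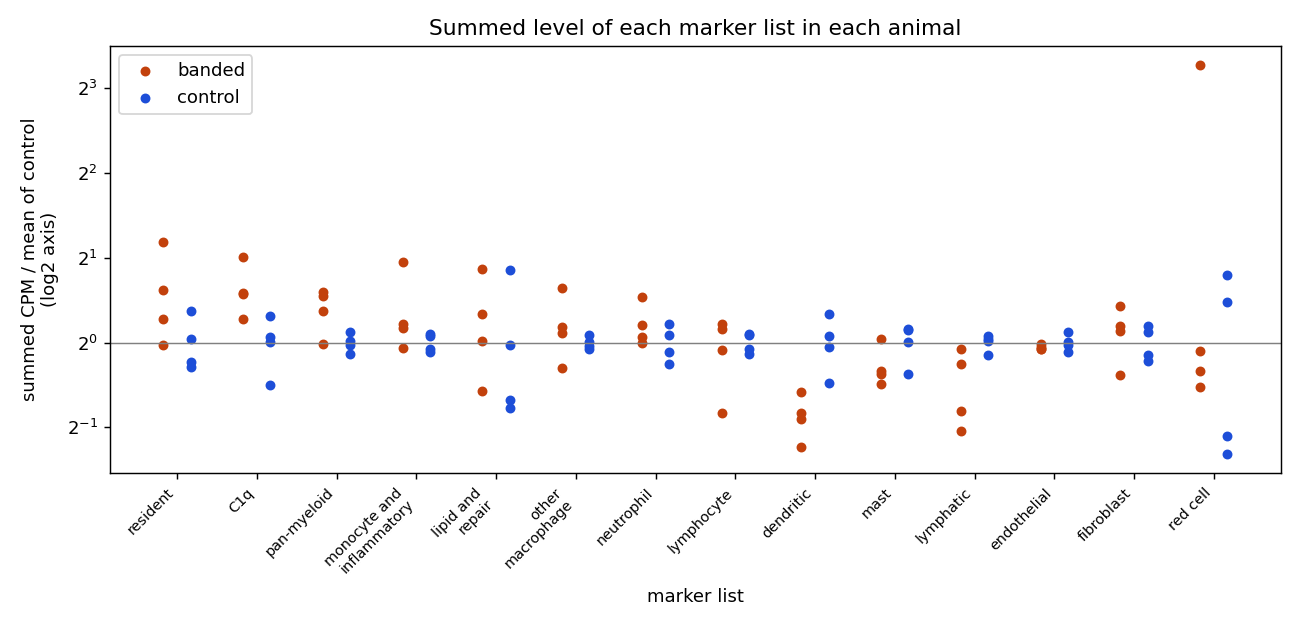
Summed CPM of each marker list in each animal over the control mean of that list, on a log2 axis, with banded points left and control points right in each pair. The C1q and resident lists sit highest among banded macrophage lists, lymphocyte and endothelial lists sit around the control mean, dendritic and lymphatic lists sit mostly below it, and banded 4 stands apart on red cell genes.

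In the authors' deposited table, whose log2 fold changes run control over banded and so are negative for genes higher in banded pigs, 7 of 31 members with an adjusted p were called, all 7 higher in banded pigs. That is 22.6%, against 5.01% of all genes with an adjusted p in that table. The members called in the authors' deposited table were F13A1 (-1.12, adjusted p = 0.000362), CD14 (-1.04, 0.0112), FOLR2 (-0.65, 0.0157), C1QB (-0.67, 0.0193), C1QA (-0.66, 0.0461), C1QC (-0.63, 0.0473) and MARCO (-2.99, 0.0305). The MARCO value rests on few counts, most of them in banded 1. For CD163 the authors' deposited table gives -1.25 (adjusted p = 0.0782), for CCR2 0.28 (0.586) and for LYVE1 0.38 (0.399). The samples and model behind that table are not given in the sources used here. Its log2 fold changes differed by less than 0.01 from those of DESeq2 without banded 3 for all 14099 genes with an adjusted p in the table, but for 6.26% of them from those of DESeq2 on all 8 libraries. The log2 fold changes of the authors' deposited table thus match those of 3 banded animals and 4 controls. All 7 members it called were also called by DESeq2 without banded 3. That fit called 8 members, adding STAB1 (adjusted p = 0.0520 in the authors' deposited table), and 1536 genes, against 1489 in that table. The adjusted p values of the table are therefore not all those of the fit. FOLR2, whose lowest banded value was in banded 3, was called by neither edgeR (0.163) nor DESeq2 (0.152) on all 8 libraries. This comparison was chosen after seeing the data.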

How the data were processed

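Per the file headers, read pairs were counted by the authors with featureCounts 1.6.2 (mapping quality at least 10, strand setting 2) on Ensembl release 106 of Sscrofa11.1, naming 24 libraries, of which 8 were analysed here. Trimmomatic, HISAT2, Subread and DESeq2 are named, without versions, per the submitters' processing notes. The deposited counts are raw. The authors' deposited table holds a mean normalised signal, a log2 fold change (control over banded), its error, a Wald score, p-values, and a percent identity to the human gene.

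Counts were filtered with filterByExpr (minimum count 10, minimum total 15), scaled by TMM and tested with edgeR 4.0.16 (quasi-likelihood F test, R 4.3.3), robust and two-sided, with Benjamini-Hochberg adjustment over 13697 genes at 0.05. The standard error is the log2 fold change over the square root of F. CPM are counts per 1e6, TMM-scaled. The script was tested on simulated data. Alternatives used DESeq2 1.42.0, limma 3.58.1, other scalings and filters, and each library left out.

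Members and lists were chosen with earlier results of these data known. By rule, every member is accounted for, values per animal are given for called members, the most abundant of each role and 9 fixed genes, and called genes of other lists are named. Unmatched list genes were matched by position on RefSeq genes of the same build (overlap at least 0.8), and CX3CL1 was not analysed here. The planned motif search was not made, as no promoter sequence was at hand.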

Additional observations from a re-analysis of the deposited data

Results flagged for a closer look

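Within a group of 4 animals, a value was singled out where its gap to the nearest other animal exceeded Dixon's 95% critical share of the range of the group. Over 60 sets (30 tested members in 2 groups) 3 were singled out, about the number that chance gives at 1 in 20, and all 3 were in banded 2. TYROBP was at 27.0 CPM in banded 2, against 21.4 to 21.8 CPM in the other banded animals. CYBB was at 24.3 CPM in banded 2, against 10.4 to 12 CPM in the others. GPNMB was at 16.9 CPM in banded 2, against 3.06 to 5.11 CPM in the others. The cause was not tested.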

How the results depend on the processing

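Of 30 tested members, 24 kept the direction of their fold change in every alternative that tested them (16 for 28 members, and 15 for ADGRE1 and TREM2, which a minimum of 50 counts in 4 libraries leaves out). The count of members called was 2 in the main test, 8 with DESeq2 (of 31, against 5.38% of all genes called higher), 8 with limma-voom (against 4.99%), 0 with library size alone (11 at an unadjusted p under 0.05), and 0 to 7 with 1 library left out. It was 0 without control 1 or control 3, and 7 without banded 4 (F13A1, CD14, CD68, LGMN, MSR1, STAB1 and C1QC, against 3.57%). FOLR2 was called in 1 alternative, without banded 3 (0.0451), and C1QB also without a filter (0.0417) and without control 4 (0.0340). All genes called numbered 1631 with DESeq2 and 399 to 962 with 1 library left out. Library size alone called 303 higher and 508 lower and put the median over all genes at -0.09 on the log2 scale, against 0.02. The log2 fold change of SPI1 was -0.022 with library size alone and -0.017 without control 3. It was -0.11 for TREM2 with limma-voom, -0.11 without banded 2 and -0.018 without banded 3. With 1 library left out the values spanned -0.39 to 0.011 for PTPRC, -0.017 to 0.15 for SPI1, -0.34 to 0.028 for CX3CR1, -0.17 to 0.43 for ITGAM, -0.11 to 0.57 for TREM2, -0.23 to 0.47 for SPP1, -0.022 to 0.55 for CSF1 and -0.56 to 1.87 for CCL2. PTPRC was at 0.011 without banded 4, CX3CR1 at 0.028 without control 2 and ITGAM at -0.17 without banded 2. SPP1 was at 0.15, 0.47 and 0.023 without banded 1, control 1 or control 3. CSF1 was at -0.022 and CCL2 at -0.56 without banded 3, and CCL2 at -0.39 with limma-voom. The cause was not tested. No paired analysis was possible because the labels give no replicate numbers shared between the groups. Depth limits TREM2, TIMD4 and ADGRE1 most, which had the lowest counts of the members tested.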
